A study of Homo sapiens with 4 samples.

Results

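P-TEFb, the 7SK particle that holds it and the super elongation complex that carries it were examined through 10 genes, HEXIM1, HEXIM2, CDK9, CCNT1, CCNT2, LARP7, MEPCE, AFF1, AFF4 and ELL2. They were picked by gene name from the 50868 genes of the deposited tables, and all 10 were found. Of them, 8 had a mean FPKM (counts scaled to gene length and to the library total) of at least 1 over the libraries, as did 11503 genes in all. HEXIM2 and ELL2 were below it.

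The RNA came from wild-type Jurkat cells, a long-established line of human leukemic T cells, after 24 h with DMSO, the vehicle, or with 0.5 µM JQ1, an inhibitor of the BET family of bromodomain proteins. Each was given in the absence of PHA or together with PHA at 150 ng/ml, a lectin that stimulates T cells, which makes 4 conditions, DMSO, JQ1, DMSO + PHA and JQ1 + PHA. The design asks what BET inhibition does to transcripts in resting and in stimulated cells of this line. There was 1 library per condition, so no difference has a replicate check, no test was made, and values of 1 cell line in culture are all that is given.

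P-TEFb is the kinase that releases RNA polymerase II from its pause near the promoter. It consists of CDK9 and a T-type cyclin, CCNT1 or CCNT2. Much of it is held inactive in a particle built on the 7SK RNA, in which MEPCE caps the RNA, LARP7 binds its end and a HEXIM protein inhibits the kinase, while the super elongation complex, whose scaffolds are AFF1 and AFF4 and whose elongation factors include ELL2, takes active P-TEFb to genes. HEXIM1 transcript is widely followed as a marker of exposure to BET inhibitors.

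The counts summed to between 18620954 and 19685401 per library, and 3 counts, used here as the floor, corresponded to 0.152 to 0.161 CPM, that is, counts on a common scale of library total. The median log2 ratio over the 11503 genes lay between -0.02 and -0.00 in the 4 comparisons. Of 8 T-cell markers, 8 had counts, with a summed FPKM of 326 in DMSO, 243 in JQ1, 402 in DMSO + PHA and 252 in JQ1 + PHA. The sums hide moves of single markers. With JQ1, 3 of the 8 were at least 2-fold lower without PHA and 4 with PHA, against 8.65% and 8% of the 11503 genes. The median log2 FPKM ratios of the 8 were -0.80 and -0.85. PTPRC alone was higher with JQ1, and only without PHA, at 112 FPKM against 70.7 in DMSO. The summed FPKM of 4 myeloid markers was 0.0433 to 0.155, and that of 4 epithelial and fibroblast markers was 0.457 to 0.707. The 4 B-cell markers summed to 7.51 in DMSO, 1.06 in JQ1, 6.34 in DMSO + PHA and 1.01 in JQ1 + PHA, of which CD79A made up nearly all. CD69 and EGR1, genes of early T-cell activation, had log2 FPKM ratios of 4.15 and 6.08 between DMSO + PHA and DMSO, and of 1.90 and 3.78 between JQ1 + PHA and JQ1. BRD2 and BRD3, targets of JQ1, had log2 FPKM ratios of JQ1 to DMSO of 0.74 and 0.58 without PHA and of 0.90 and 0.51 with PHA.

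HEXIM1 and HEXIM2 are neighbours on chromosome 17 with JQ1 ratios of opposite sign, so the 250 bases before the start of the canonical transcript of each are shown, taken from RefSeq promoter windows on GRCh38.p14 and printed 5′ to 3′ on the plus strand. The HEXIM1 stretch is chr17:45148225-45148474 and that of HEXIM2 is chr17:45161625-45161874. The annotated HEXIM2 gene begins upstream, at 45160700, so its stretch lies within the gene. HEXIM2 had 2 windows, and only the 1 at the canonical start is shown. The HEXIM1 stretch overlaps an annotated exon of another gene, ENSG00000276728. Capitals mark exact matches to motifs on either strand. The TATA box was spelled TATAAA. Another motif was the CCAAT box of those letters, which reads as its reverse complement where it lies on the minus strand. The GC box was spelled GGGCGG.
HEXIM1: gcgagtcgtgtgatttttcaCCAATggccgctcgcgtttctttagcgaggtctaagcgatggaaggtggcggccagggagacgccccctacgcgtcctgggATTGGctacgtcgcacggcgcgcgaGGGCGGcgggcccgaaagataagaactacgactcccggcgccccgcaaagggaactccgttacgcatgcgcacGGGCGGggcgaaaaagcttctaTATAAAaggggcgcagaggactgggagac
HEXIM2: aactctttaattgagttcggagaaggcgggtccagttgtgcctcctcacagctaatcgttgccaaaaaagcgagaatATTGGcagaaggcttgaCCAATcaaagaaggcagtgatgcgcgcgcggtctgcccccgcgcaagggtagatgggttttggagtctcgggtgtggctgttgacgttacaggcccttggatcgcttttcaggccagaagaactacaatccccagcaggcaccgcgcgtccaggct
The HEXIM1 stretch held 1 TATA box, from -29 to -24 relative to the start, 2 CCAAT boxes and 2 GC boxes, and its GC content was 62.4%. The HEXIM2 stretch held 2 CCAAT boxes and none of the other motifs, with a GC content of 55.2% against a median of 58% over all windows. Of 35116 windows of this length, 10.7% held the TATA box, 32.0% the CCAAT box and 42.6% the GC box. Of the 9 members with such a window, 1 held the TATA box, 6 the CCAAT box and 7 the GC box, and the E-box, CACGTG, in 6.34% of windows, was found before CCNT1 and AFF4. A match of letters is a description of the sequence and not of binding. ELL2 had no window at its canonical start.

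Levels of different genes are compared on the FPKM scale, which divides by a gene length set by the authors. HEXIM1 led the members in every library, with a mean of 70.9 FPKM that lay above 97.5% of the 11503 genes. MEPCE followed with a mean of 16.0, CDK9 with 14.6, AFF4 with 13.9 and CCNT1 with 10.6 FPKM. The ranges of MEPCE, CDK9 and AFF4 over the libraries overlapped, so their order is not fixed, and that of CCNT1 overlapped the range of AFF4. AFF1 and LARP7, at means of 6.64 and 5.64 FPKM, overlapped as well, and CCNT2 stood apart at 1.41. HEXIM2 and ELL2 came last with 0.622 and 0.551 FPKM and overlapping ranges.

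The length behind FPKM bears on that order. The length implied by counts and FPKM was 3600 bases for HEXIM1, close to the 3625 of its canonical transcript, but 1.43 to 3.69 times the canonical length for the other 9 members, 2.2 times for MEPCE and 3.69 times for HEXIM2. With canonical lengths in place of the authors', HEXIM2 in the DMSO library came to 3.18 on the FPKM scale in place of 0.863, and MEPCE to 37.3, above the 35.9 of HEXIM1. The lead of HEXIM1 in the DMSO library therefore depended on the length. In DMSO + PHA HEXIM1 was highest on both scales, at 34.3 with canonical lengths against 30.7 for MEPCE. With JQ1 it was highest on both as well, at 108 and 104 against at most 37.6 for any other member. Ratios of 1 gene between libraries do not depend on the length.

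**Figure D1:**
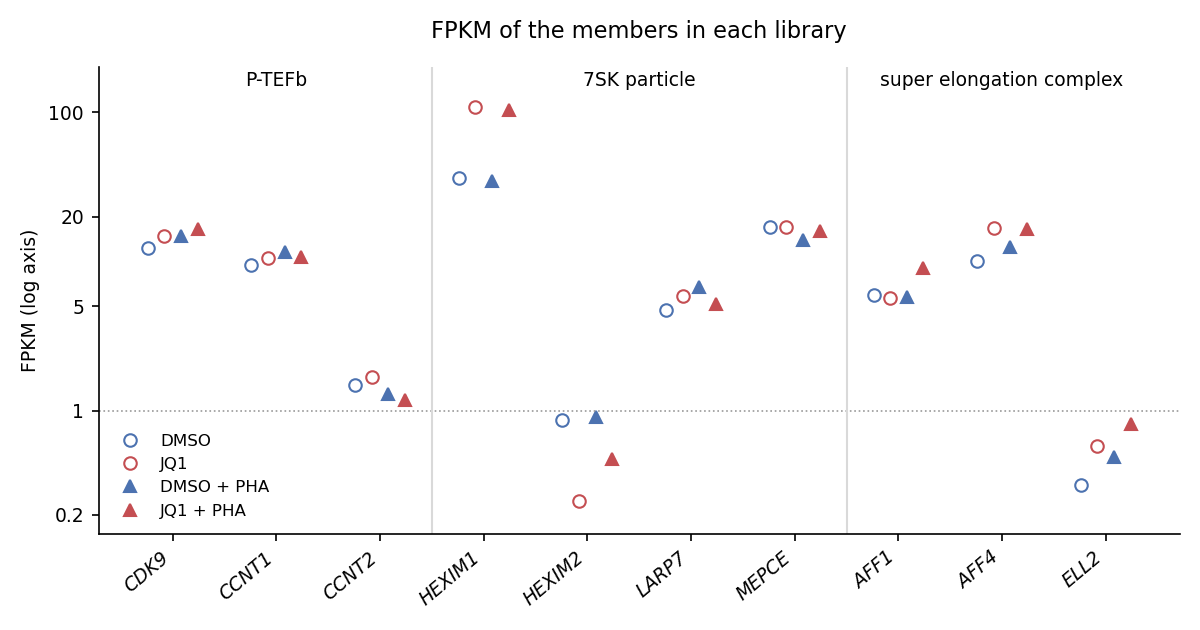
FPKM (log axis) of the 10 members in the 4 libraries, circles without PHA and triangles with PHA, blue for DMSO and red for JQ1, 1 point per library; the dotted line is 1 FPKM. HEXIM1 was at 34.6 and 36.2 in the DMSO libraries and at 104 and 109 in the JQ1 libraries, while HEXIM2 was lower in both JQ1 libraries.

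Compared by transcript with JQ1, HEXIM1 stood out as 3-fold higher whether or not PHA was present, and its paralog HEXIM2, at a low level, was lower. The scaffold AFF4 and the factor ELL2 were higher with JQ1 in both settings. The kinase and its cyclins had ratios between -0.14 and 0.27. Ratios below are log2 ratios of the shares of counts, each with its 95% exact (Clopper-Pearson) interval. The intervals cover counting error only, since reads amplified by PCR without molecular identifiers are not independent molecules and the spread between cultures was not measured. In RNA from whole cultures, fewer cells with a transcript and less transcript per cell cannot be told apart.

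HEXIM1 (ENSG00000186834), the inhibitor of P-TEFb, is a single-exon gene on the plus strand of chromosome 17, from 45148502 to 45152101 in the files. It had 36.2 FPKM (2450 counts) in DMSO, 109 FPKM (7687 counts) in JQ1, 34.6 FPKM (2451 counts) in DMSO + PHA and 104 FPKM (6994 counts) in JQ1 + PHA. Both JQ1 libraries were above both DMSO libraries, and libraries on the same side differed in PHA. The share of all genes that separate in this way was not counted, here or for HEXIM2 and AFF4 below. The log2 ratio of JQ1 to DMSO was 1.58 (1.52 to 1.65) without PHA, a fold of 3.0, and 1.59 (1.53 to 1.66) with PHA, a fold of 3.02. The ratios differed by 0.01, with a counting interval from -0.09 to 0.10. By its ratio HEXIM1 was at rank 168 from the highest of 11503 genes without PHA and at rank 124 with PHA.

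Of the 8 members past the FPKM minimum, HEXIM1 alone was up 2-fold or more in JQ1 relative to DMSO, where 5.22% of all 11503 genes were, and none was down 2-fold, against 8.65%. With PHA the count of members was again 1 higher, HEXIM1, against 3.69% of genes, and 0 lower, against 8% of genes. These shares were counted on the log2 scale of FPKM plus 0.1. HEXIM2 fell below the minimum on the authors' length and was not counted here. With canonical lengths it came to 3.18 in DMSO, 0.920 in JQ1, 3.33 in DMSO + PHA and 1.76 in JQ1 + PHA on the FPKM scale.

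HEXIM2 (ENSG00000168517), the second inhibitor, lies 8.60 kb downstream on the same strand, from 45160700 to 45170040. It had 0.863 FPKM (86 counts) in DMSO, 0.249 FPKM (26 counts) in JQ1, 0.901 FPKM (94 counts) in DMSO + PHA and 0.476 FPKM (47 counts) in JQ1 + PHA. Both JQ1 libraries were below both DMSO libraries, the reverse of HEXIM1. The log2 ratio of JQ1 to DMSO was -1.79 (-2.48 to -1.14) without PHA, a fold of 3.46 lower, and -0.92 (-1.46 to -0.40) with PHA, a fold of 1.89 lower. The ratio with PHA minus that without was 0.87, with a counting interval from 0.06 to 1.68. HEXIM1 made up 97.7% of the summed FPKM of the pair in DMSO, 99.8% in JQ1, 97.5% in DMSO + PHA and 99.5% in JQ1 + PHA. These shares depend on the length. The HEXIM1 to HEXIM2 ratio was 41.9 in DMSO and 435 in JQ1, but 11.3 and 117 with canonical lengths.

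HEXIM2 overlaps genes on the opposite strand. In GENCODE release 44, 51.1% of its exon bases are shared with RP13-890H12.2, which had 1 to 2 counts per library. Counted separately, 28.2% are shared with AC002117.1, named HEXIM2-AS1 in that release. Whether these are in part the same bases was not checked. AC002117.1 had 6, 10, 5 and 11 counts in DMSO, JQ1, DMSO + PHA and JQ1 + PHA. AC002117.1 was thus at 10 counts where HEXIM2 was at 26, and because the strand setting of the counting is not given, the share of these reads that belongs to either gene cannot be told. HEXIM1 shares 14.3% of its exon bases with AC002117.1, whose counts were 0.163% of those of HEXIM1.

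The opposite signs of the pair were set beside the genes within 150 kb of HEXIM1 that had a mean of at least 20 counts, 9 besides the pair. DCAKD had log2 ratios of JQ1 to DMSO of 0.61 without and 0.50 with PHA, PLCD3 of 1.0 and 0.44, and MAP3K14 of 0.56 and 0.49. FMNL1 was lower in both, at -0.76 and -0.96, and NMT1 was near 0, at -0.12 and 0.03. ACBD4, which ends 4.32 kb before HEXIM1, was at 0.12 and -0.38. None of these 9 had a ratio as high as that of HEXIM1 or as low as that of HEXIM2 in the comparison without PHA. With PHA, FMNL1 at -0.96 was slightly below HEXIM2 at -0.92.

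**Figure D2:**
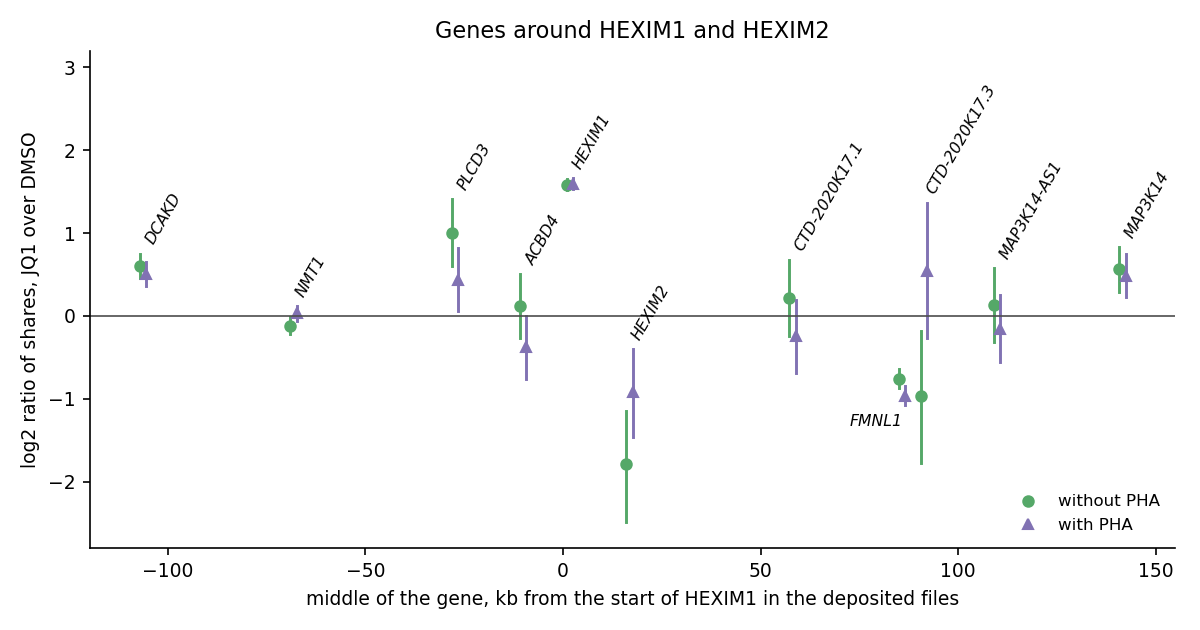
Log2 ratio of shares of counts, JQ1 over DMSO, of the genes within 150 kb of HEXIM1, at the middle of each gene in kb from the HEXIM1 start (circles without PHA, triangles with PHA, bars 95% counting intervals). HEXIM1 is the highest point at 1.58 and 1.59, and HEXIM2, 8.60 kb downstream of its end, is the lowest without PHA at -1.79.

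CDK9 (ENSG00000136807; chromosome 9, plus strand, 127785679 to 127790787), the catalytic subunit, was lowest in the DMSO library. It had 12.3 FPKM (942 counts) in DMSO, 14.8 FPKM (1186 counts) in JQ1, 14.9 FPKM (1196 counts) in DMSO + PHA and 16.6 FPKM (1260 counts) in JQ1 + PHA. The JQ1 ratio was 0.27 (0.14 to 0.39) without PHA and 0.16 (0.04 to 0.27) with it. Their difference, -0.11, had an interval from -0.28 to 0.06.

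CCNT1 (ENSG00000129315; chromosome 12, minus strand, 48688458 to 48716998), the main cyclin partner, had 9.47 FPKM (2864 counts) in DMSO and 10.6 FPKM (3354 counts) in JQ1. With PHA it had 11.5 FPKM (3655 counts) in DMSO and 10.7 FPKM (3198 counts) in JQ1. JQ1 was thus above DMSO without PHA, with a ratio of 0.16 (0.09 to 0.24), and below it with PHA, with a ratio of -0.11 (-0.18 to -0.04). The second ratio minus the first was -0.28 (-0.38 to -0.18).

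CCNT2 (ENSG00000082258; chromosome 2, plus strand, 134918235 to 134959342), the alternative cyclin, had 1.49 FPKM (528 counts) in DMSO, 1.68 FPKM (626 counts) in JQ1, 1.30 FPKM (482 counts) in DMSO + PHA and 1.17 FPKM (413 counts) in JQ1 + PHA. It was highest in the JQ1 library and lowest in JQ1 + PHA. The JQ1 ratio was 0.18 (0.01 to 0.35) without PHA and -0.14 (-0.34 to 0.05) with it. CCNT2-AS1, whose exons share 1.65% of the exon bases of CCNT2 on the opposite strand, had 30, 78, 35 and 99 counts in DMSO, JQ1, DMSO + PHA and JQ1 + PHA. CCNT1 made up 86.4% of the summed cyclin T FPKM in DMSO, 86.3% in JQ1, 89.9% in DMSO + PHA and 90.1% in JQ1 + PHA. The CCNT1 to CCNT2 ratio was nearly the same with and without JQ1, 6.37 in DMSO and 6.29 in JQ1, and 8.91 and 9.09 with PHA.

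LARP7 (ENSG00000174720; chromosome 4, plus strand, 112636964 to 112657592), which binds and stabilizes 7SK RNA, had 4.77 FPKM (647 counts) in DMSO and 5.90 FPKM (837 counts) in JQ1. With PHA it had 6.74 FPKM (957 counts) in DMSO and 5.17 FPKM (694 counts) in JQ1. JQ1 was above DMSO without PHA, with a ratio of 0.31 (0.16 to 0.46), and below it with PHA, with a ratio of -0.38 (-0.53 to -0.24). The difference was -0.69 (-0.89 to -0.49), the lowest of the 10 members. Over all 11503 genes, 16.0% had a difference of at least 0.5 in either direction and 9.14% one of at least 0.5 downward. The LARP7 locus overlaps that of ZGRF1, which had 1414 to 1808 counts, but they share no exon base in GENCODE release 44. The overlapping gene RP11-148B6.1 had 0 counts, as did 3 LARP7 pseudogenes.

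MEPCE (ENSG00000146834; chromosome 7, plus strand, 100428790 to 100434126), the capping enzyme of 7SK RNA, was lowest in DMSO + PHA. It had 17.0 FPKM (1979 counts) in DMSO, 17.1 FPKM (2088 counts) in JQ1, 14 FPKM (1706 counts) in DMSO + PHA and 16.1 FPKM (1857 counts) in JQ1 + PHA. The JQ1 ratio was 0.01 (-0.08 to 0.10) without PHA and 0.20 (0.11 to 0.30) with it. The LARP7 to MEPCE ratio of FPKM was 0.281 in DMSO, 0.345 in JQ1, 0.482 in DMSO + PHA and 0.321 in JQ1 + PHA. On the opposite strand ZCWPW1, which shares 6.02% of the MEPCE exon bases, had 51 to 106 counts. On the same strand ENSG00000289690 shares 61.3% of the MEPCE exon bases. That gene is not among the deposited genes, so it has no count of its own. Whether part of the MEPCE counts, and of the levels and ratios built on them, came from that gene was not tested.

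The 7SK RNA itself (RN7SK) had 3, 6, 14 and 9 counts in DMSO, JQ1, DMSO + PHA and JQ1 + PHA. The kits named for these libraries are for messenger RNA or RNA-seq in general, and 7SK has no poly(A) tail. At these counts the particle's RNA could not be followed, and the JQ1 intervals of RN7SK both included 0. Whether the kit or the counting kept its counts low was not tested.

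The ratio of inhibitor to kinase transcripts was higher with JQ1. HEXIM1 stood at 2.95 times the FPKM of CDK9 in DMSO and 7.34 times in JQ1, and at 2.32 and 6.29 times with PHA. The log2 change of that ratio with JQ1 was 1.32 (1.18 to 1.46) without PHA and 1.44 (1.31 to 1.57) with it. With canonical lengths the same ratios were 1.78, 4.44, 1.4 and 3.8, so the level of HEXIM1 over CDK9 depended on the length while its change did not. HEXIM1 to LARP7 was 7.59 in DMSO and 18.4 in JQ1, and 5.13 in DMSO + PHA and 20.2 in JQ1 + PHA. These are ratios of transcripts, and no protein was measured here.

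AFF4 (ENSG00000072364; chromosome 5, minus strand, 132875379 to 132963634), the central scaffold of the super elongation complex, had 10.1 FPKM (2586 counts) in DMSO, 16.7 FPKM (4476 counts) in JQ1, 12.6 FPKM (3379 counts) in DMSO + PHA and 16.4 FPKM (4171 counts) in JQ1 + PHA. Both JQ1 libraries were above both DMSO libraries. The JQ1 ratio was 0.73 (0.66 to 0.80) without PHA, a fold of 1.66 and rank 1221 of 11503 genes, and 0.38 (0.32 to 0.45) with PHA, a fold of 1.30. The ratio with PHA minus that without was -0.34 (-0.44 to -0.25).

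AFF1 (ENSG00000172493; chromosome 4, plus strand, 86935002 to 87141054), a related scaffold, had 5.97 FPKM (2190 counts) in DMSO, 5.71 FPKM (2191 counts) in JQ1, 5.82 FPKM (2234 counts) in DMSO + PHA and 9.04 FPKM (3283 counts) in JQ1 + PHA. The JQ1 + PHA library alone was high, and the other 3 lay close together. The JQ1 ratio was -0.06 (-0.15 to 0.02) without PHA and 0.64 (0.56 to 0.71) with PHA, a fold of 1.55. The difference of 0.70 (0.58 to 0.81) was the largest upward one among the 8 members past the FPKM minimum, where 6.90% of all genes had a difference of at least 0.5 upward. AFF4 stood at 1.69 times the FPKM of AFF1 in DMSO, 2.92 in JQ1, 2.16 in DMSO + PHA and 1.81 in JQ1 + PHA.

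ELL2 (ENSG00000118985; chromosome 5, minus strand, 95885098 to 95962071), an elongation factor of the complex, was low throughout. It had 0.317 FPKM (55 counts) in DMSO, 0.578 FPKM (105 counts) in JQ1, 0.490 FPKM (89 counts) in DMSO + PHA and 0.820 FPKM (141 counts) in JQ1 + PHA. The JQ1 ratio was 0.87 (0.38 to 1.37) without PHA and 0.74 (0.35 to 1.14) with it. These intervals were wide because the counts were low. The pseudogene ELL2P1 had 2 to 3 counts.

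**Figure D3:**
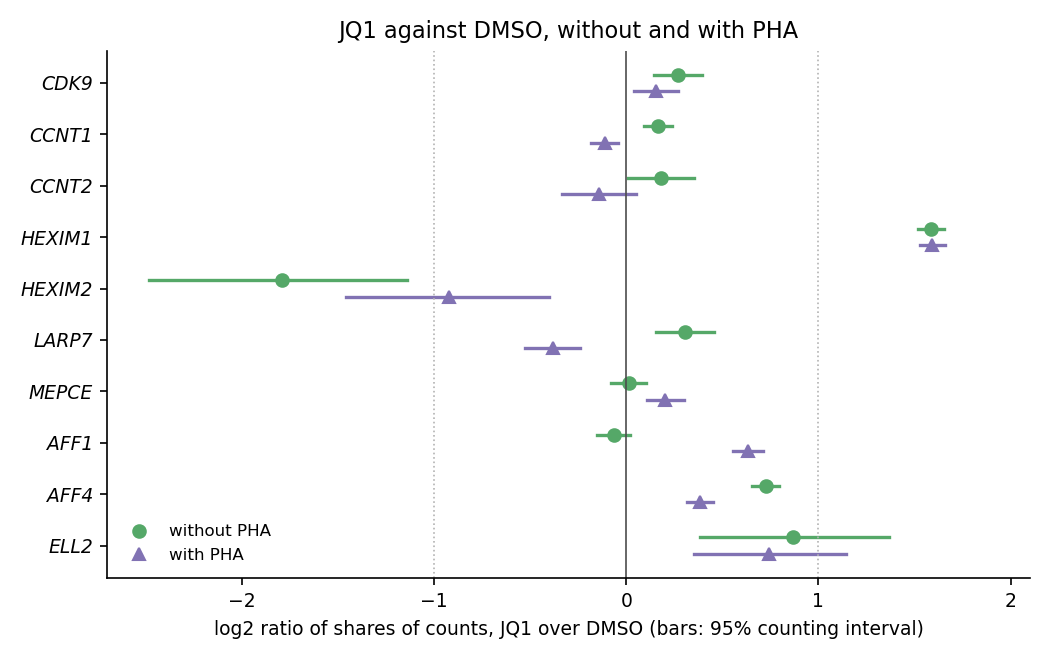
Log2 ratio of the shares of counts, JQ1 over DMSO, of each member without PHA (green circles) and with PHA (purple triangles); bars are 95% counting intervals and dotted lines mark 2-fold. HEXIM1 is at 1.58 and 1.59, AFF4 and ELL2 are above 0 in both comparisons, HEXIM2 is below 0 in both, and CCNT1 and LARP7 lie on opposite sides of 0.

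Counted over the 10 members, the interval of the JQ1 ratio lay above 0 for 7 and below 0 for 1, HEXIM2, without PHA. Of the 11503 genes, which leave out HEXIM2 and ELL2, 36.9% and 38.7% did so. With PHA the interval lay above 0 for 6 members and below 0 for 3, against 34.6% and 38.2% of the 11503 genes. The median ratio of the members was 0.22 without PHA and 0.18 with PHA.

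With PHA in DMSO-treated cells the 7SK-binding protein LARP7 and the elongation factor ELL2 had the highest ratios of the members. None of the 8 members past the FPKM minimum was at least 2-fold higher in DMSO + PHA than in DMSO, against 2.1% of genes, and none 2-fold lower, against 1.19%. The ratio was 0.63 (0.13 to 1.14) for ELL2, 0.50 (0.35 to 0.65) for LARP7, 0.32 (0.25 to 0.40) for AFF4, 0.29 (0.22 to 0.36) for CCNT1 and 0.28 (0.15 to 0.40) for CDK9. LARP7 was at rank 853 of 11503 genes from the highest. MEPCE at -0.28 (-0.37 to -0.19) and CCNT2 at -0.20 (-0.38 to -0.02) were lower with PHA. The intervals of HEXIM1 at -0.06 (-0.15 to 0.02), HEXIM2 at 0.06 (-0.37 to 0.50) and AFF1 at -0.04 (-0.12 to 0.05) included 0. The interval was above 0 for 5 of the 10 members and below 0 for 2, against 24.7% and 25.1% of the 11503 genes, which leave out HEXIM2 and ELL2.

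In cells given JQ1, PHA went with another set of differences. None of the 8 was 2-fold higher in JQ1 + PHA than in JQ1, against 1.04% of genes, and none 2-fold lower, against 1.03%. AFF1 had the highest ratio of the 8, 0.66 (0.58 to 0.74), at rank 242 of 11503 genes. CCNT2 had the lowest, -0.52 (-0.70 to -0.34), at rank 474 from the lowest. LARP7 was at -0.19 (-0.34 to -0.04), below 0, and MEPCE at -0.09 (-0.18 to 0.00). HEXIM2 was at 0.93 (0.21 to 1.68) and ELL2 at 0.50 (0.13 to 0.88), both at low counts. CDK9 was at 0.17 (0.05 to 0.28). HEXIM1 at -0.06 (-0.10 to -0.01), CCNT1 at 0.01 (-0.06 to 0.08) and AFF4 at -0.02 (-0.08 to 0.04) were within 1.04-fold of their level without PHA. The interval was above 0 for 4 of the 10 members and below 0 for 3, against 15.6% and 15.7% of the 11503 genes, which leave out HEXIM2 and ELL2. Each library serves in 2 of the 4 comparisons, so these are not independent of the JQ1 ratios.

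**Figure D4:**
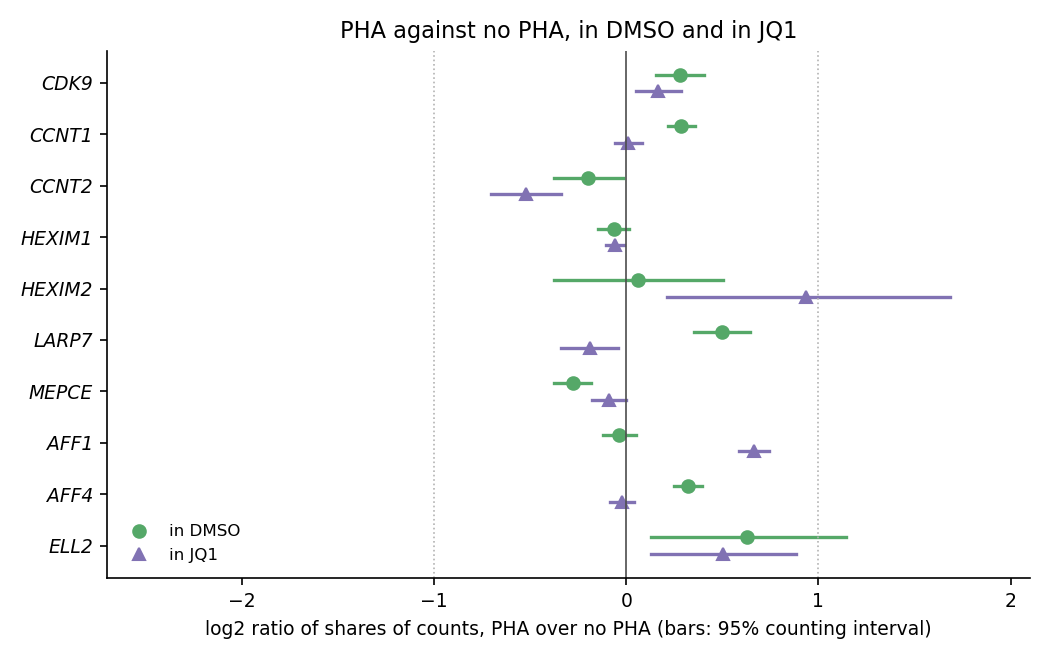
Log2 ratio of the shares of counts, PHA over no PHA, of each member in DMSO (green circles) and in JQ1 (purple triangles); bars are 95% counting intervals and dotted lines mark 2-fold. LARP7 is at 0.50 in DMSO and -0.19 in JQ1, AFF1 is at -0.04 and 0.66, and HEXIM1 is at -0.06 in both.

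The other genes of the elongation machinery were taken from 6 lists of 43 genes, 41 of which had a mean FPKM of at least 1. On the log2 scale of FPKM plus 0.1, 1 was up 2-fold or more with JQ1 and 2 were down in the absence of PHA. Of the 11503 genes, 5.22% were up and 8.65% down. In the presence of PHA 0 were up and 2 down with JQ1, against 3.69% and 8% of genes. Of those 2, AFF3 reached the minimum mean FPKM only through the DMSO + PHA library, so the filter itself favoured its fall there. The median log2 ratio of the 41 was -0.07 in both comparisons, against 0.22 and 0.18 for the 8 members past the minimum.

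Among 7 other genes of the super elongation complex, AFF3, a further scaffold of the AFF family, had 1.15 FPKM in DMSO, 0.283 in JQ1, 2.47 in DMSO + PHA and 0.262 in JQ1 + PHA. AFF3 reached the minimum mean FPKM only through the DMSO + PHA library. Its JQ1 ratio on this scale was -1.70 without PHA and -2.83 with PHA, opposite in sign to that of AFF4. MLLT3, a chromatin reader of the complex also known as AF9, was at the other end of the list, with ratios of 0.96 and 0.95. The list's median was -0.22 without PHA and 0.05 with PHA.

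The list of 7SK RNA and the proteins that bind it or free P-TEFb from it held 10 genes. DDX21, an RNA helicase that frees P-TEFb from 7SK, was the only gene of the list past 2-fold with JQ1. DDX21 had 103 FPKM in DMSO, 34.4 in JQ1, 101 in DMSO + PHA and 36.1 in JQ1 + PHA, with ratios of -1.58 and -1.48. DDX21 was thus about 3-fold lower in both JQ1 libraries. The median of the list was -0.18 and -0.20.

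Of 9 genes of the PAF1 complex and other elongation factors, RTF1, which binds that complex, had the highest ratio, 1.03 without PHA and 0.79 with PHA, and WDR61 the lowest without PHA, -0.44, against -0.18 with PHA. RTF1 had 21.5 FPKM in DMSO, 44 in JQ1, 22.8 in DMSO + PHA and 39.6 in JQ1 + PHA. The 6 genes of the pausing factors NELF and DSIF ran from NELFE at -0.73 to SUPT4H1 at 0.25 without PHA. With PHA they ran from NELFCD at -0.65 to SUPT4H1 at 0.68, with NELFE at -0.30. NELFCD was at -0.54 without PHA. None of the 6 was past 2-fold. The 6 genes of other transcriptional CDKs and their partners lay between CCNH at -0.19 and CDK13 at 0.20 without PHA. The 3 genes of the little elongation complex lay between ZC3H8 at -0.27 and ICE1 at 0.05 without PHA. With PHA the lowest was ICE2 at -0.59.

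**Figure D5:**
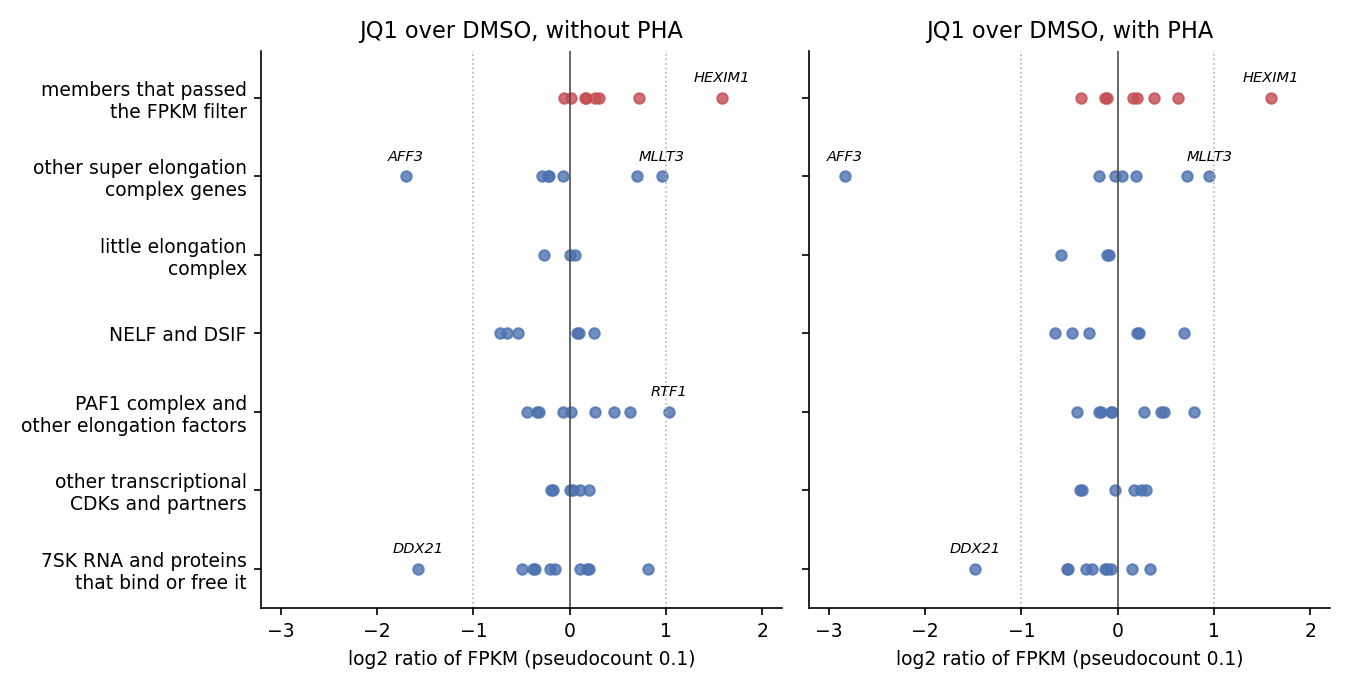
Log2 ratio of FPKM plus 0.1, JQ1 over DMSO, without PHA (left) and with PHA (right), for the 8 members past 1 FPKM (red) and the 41 other elongation genes by list (blue); dotted lines mark 2-fold. HEXIM1 is the single red point past 2-fold, and AFF3 and DDX21 lie below 2-fold in both panels. AFF3 passed the FPKM filter only through the DMSO + PHA library.

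With PHA against DMSO alone, 2.1% of the 11503 genes were up 2-fold or more and 1.19% were down. Of the 41 genes, 2, AFF3 and RN7SK, were up and 0 were down. Both reached the minimum mean FPKM only through the DMSO + PHA library, so the filter itself favoured this count and it is no more than a description. AFF3 was at a log2 ratio of 1.04. RN7SK was at 1.95, from 3 to 14 counts, which is at the floor in DMSO, and the lower end of its interval on the scale of counts was 0.32. None of the 41 was past 2-fold between JQ1 + PHA and JQ1, against 1.04% of genes higher and 1.03% lower.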

How the data were processed

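RNA was extracted with TRIzol from 4 Jurkat cultures and sequenced on 1 library each. The library kit is named differently in the labels and in the methods, as a universal and as a stranded mRNA kit. The authors aligned the reads with Hisat2 2.0.4 to GRCh38, and the submitters' processing notes also list TopHat2 2.0.9 and Cufflinks 2.1.1. The gene counter, its strand and multi-mapping settings and the annotation release are not given in the sources used here. The authors deposited, per gene, the count of reads, not normalized, and FPKM, which scales that count to the length of the gene and the sum of the library's counts. This was checked on 12689 genes, for which the implied length differed by at most 4.65e-05 of its value between libraries.

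Libraries were grouped by the treatment in their labels and joined on the Ensembl identifier. With 1 library per condition no test was made. Ratios are log2 ratios of FPKM plus 0.1, counted past 2-fold over genes whose mean FPKM reached 1, and log2 ratios of shares of counts with 95% exact (Clopper-Pearson) intervals, Wald intervals being used for differences of ratios. The 10 members and the lists were chosen with earlier results of these data known. Named outside the members are the genes of each list past 2-fold with JQ1 or at either end of its JQ1 ratios, the 5 genes most alike in profile to HEXIM1 and to HEXIM2, BRD2, BRD3, CD69 and EGR1. An item withheld for evaluation is not reported here. The neighbours of HEXIM1 were added to them. Exons came from GENCODE release 44 and promoters from RefSeq on GRCh38.p14. Alternatives were the pseudocount, 4 scalings, 3 filters and 2 fold thresholds; the use of canonical transcript lengths was added after the data had been seen. Scripts were tested on simulated data. Computation used scipy 1.17.1, pandas 2.3.3 and numpy 2.4.6 under Python 3.11.15, and plots used matplotlib 3.10.9. Scaling factors alone came from DESeq2 1.42.0 and edgeR 4.0.16 under R 4.3.3. Protein sequences were not used here.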

Additional observations from a re-analysis of the deposited data

Results flagged for a closer look

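A pair of members had JQ1 ratios of opposite sign with and without PHA, both with a counting interval that left out 0. For LARP7 the log2 ratio of JQ1 to DMSO with PHA minus that without was -0.69, from 0.31 to -0.38. For CCNT1 it was -0.28, from 0.16 to -0.11. With 1 library per condition neither difference was tested against the spread between cultures.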

How the results depend on the processing

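No paired analysis was possible because each condition had 1 library and the labels carry no replicate numbers. The ratios of the 10 members in the 4 comparisons were recomputed under 5 alternatives, another pseudocount and 4 scalings, and 194 of 200 values lay within the counting interval of the ratio reported, with no change of sign. The other 6 came with a pseudocount of 1 FPKM in place of 0.1. They were HEXIM2 at -0.58 in place of -1.46 without PHA and at -0.36 in place of -0.80 with PHA, ELL2 at 0.26 in place of 0.70 and at 0.29 in place of 0.64, all with JQ1 against DMSO, and, in JQ1 + PHA against JQ1, CCNT2 at -0.30 in place of -0.49 and AFF1 at 0.58 in place of 0.65. Counts of members past the threshold moved as follows. At 1.5-fold, 2 members were higher in JQ1 than in DMSO (HEXIM1 and AFF4), 2 in JQ1 + PHA than in DMSO + PHA (HEXIM1 and AFF1) and 1 in JQ1 + PHA than in JQ1 (AFF1). At 3-fold, 0 were higher in JQ1 than in DMSO. With a mean FPKM of at least 0.1, or no filter, 1 member, HEXIM2, was 2-fold lower in JQ1 than in DMSO.

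Counts over all genes also depended on these settings. The 600 genes higher and 995 lower in JQ1 than in DMSO became 305 and 576 with a pseudocount of 1, 1486 and 2253 with a mean FPKM of at least 0.1, 198 and 372 with at least 5, 1945 and 2797 with no filter, 1702 and 2222 at 1.5-fold, and 165 and 357 at 3-fold. With PHA the 424 and 920 ranged from 125 to 1575 and from 320 to 2925 over the same settings. For DMSO + PHA against DMSO the 241 and 137 ranged from 67 to 1508 and from 37 to 1080, and for JQ1 + PHA against JQ1 the 120 and 118 from 31 to 1004 and from 37 to 1054. Scaling moved the median of all genes by at most 0.06 on the log2 scale. Ratios between members within a library all moved when canonical transcript lengths replaced the authors'. HEXIM2 and ELL2, with 26 to 141 counts, were the members that depth limited most.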

Other observations

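The genes whose profile over the 4 libraries was most like that of HEXIM1, by the root mean square difference of centred log2(FPKM + 0.1) values among 11502 genes, were TLN2 at 0.0400, TRIM36 at 0.0486, CDKN2D at 0.0497, DNM3 at 0.0608 and IGHV3-36 at 0.0709. CDKN2D, an inhibitor of the kinases CDK4 and CDK6, had 4.11 FPKM in DMSO, 12.8 in JQ1, 3.99 in DMSO + PHA and 13.2 in JQ1 + PHA. TLN2, a talin that links integrins to actin, had 1.46, 4.32, 1.42 and 4.41 FPKM in the same order. The genes most like HEXIM2 among 11503 were MZT2B at 0.0440, RP11-298I3.6 at 0.0468, SLC45A3 at 0.0877, KIAA1211 at 0.0935 and RP5-1056L3.3 at 0.0945. MZT2B, a protein of the gamma-tubulin complex, had 4.45 FPKM in DMSO, 1.63 in JQ1, 4.62 in DMSO + PHA and 2.82 in JQ1 + PHA. DNM3 and IGHV3-36 reached the minimum mean FPKM only through the JQ1 libraries, where they were high. RP11-298I3.6, SLC45A3, KIAA1211 and RP5-1056L3.3 reached it only through the DMSO libraries. The filter itself thus favoured these profiles. A profile of 4 libraries has few degrees of freedom, and likeness is a description of these libraries.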
